A study of Rattus norvegicus with 36 samples.

Results

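Lung expression of 10 genes of the myofibroblast and of matrix crosslinking was followed for 180 days after instillation of DQ-12, a crystalline silica dust used as a reference material in inhalation toxicology. The genes were those for the ligands TGF-β1 and TGF-β2 (Tgfb1, Tgfb2), α-smooth muscle actin (Acta2), fibronectin (Fn1), tenascin-C (Tnc), periostin (Postn), elastin (Eln) and the enzymes Lox, Loxl1 and Loxl2. They were chosen by name: each probe of the array that was not a control and carried one of these 10 names was taken, which gave 17 probes among 25597 gene names. All 17 probes passed the filter on low signal, and each was well above background on every array, except both Tnc probes, each on 1 array of DQ-12 rats at D180. All 10 genes were therefore among the 23721 genes tested.

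The rats were female Sprague Dawley, 13 weeks old at instillation, and received either 10 mg of DQ-12 per rat in sterile saline or the saline alone (vehicle) through the trachea under anesthesia. The DQ-12 had been ground to reactivate its surface, which, per the study's methods, also made the particles smaller and less crystalline and left traces of tungsten and cobalt. Each of the 6 groups (vehicle and DQ-12 at D1, D30 and D180 after instillation) held 6 rats, and 1 single-color Agilent array per rat was hybridized with RNA of the accessory lung lobe (36 arrays). Values below are log2 signals after quantile normalization, and a change is the mean of the DQ-12 rats minus that of the vehicle rats on this log2 scale.

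TGF-β is secreted in a latent complex, and once freed it signals through receptor kinases to Smad proteins. In fibroblasts this program raises α-smooth muscle actin, by which myofibroblasts are recognized, together with fibronectin, tenascin-C and periostin. Lysyl oxidases then oxidize lysines of collagen and elastin, the first step of the covalent crosslinks that make scar tissue stiff and hard to degrade. In the healthy lung, Acta2 is mainly a gene of airway and vascular smooth muscle. In RNA of a whole lobe, fewer cells of a type and less RNA per cell cannot be told apart.

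The arrays held 58717 spots each other than controls, of which 60.96 to 80.55% were well above background, and no spot was saturated. All 6 markers of alveolar type 2 cells and all 5 of alveolar type 1 cells were well above background on every array. Arrays were scanned on 11 dates. At D1, the 6 DQ-12 arrays and 1 vehicle array shared a date, and the other 5 vehicle arrays were scanned on 2 other dates. At D30, 1 date held 1 DQ-12 and 4 vehicle arrays, and the other date 5 and 2. At D180, 1 date held 3 arrays of each group and another 1 of each. The remaining D180 arrays were on dates that held a single group. The number of arrays per group limits the precision of each value.

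Members were called at D1 and D180, the times that also had more calls than D30 among all genes. At D1, Tnc, Fn1 and Acta2 were higher in DQ-12 rats, whereas at D180 Postn was lower and Tgfb1 higher. At adjusted p under 0.05 (limma, Benjamini–Hochberg over all genes tested), D1 had 3 of the 10 members called, D30 had 0 and D180 had 2, against 16.5, 4.06 and 17.1% of all genes tested. The counts at D30 and D180 were thus near the shares of all genes. All 3 members at D1 were higher, as were 7.69% of all genes, and at D180, 1 was higher and 1 lower, against 7.94 and 9.11%. When a change of 2-fold or more was also required, Tnc at D1 was the only member called (3.12, 1.06 and 3.67% of all genes at D1, D30 and D180). None of the 10 reached an unadjusted p under 0.05 at D30. The median change of the 10 members was 0.28 at D1, 0.01 at D30 and -0.23 at D180, and that of all genes tested was -0.01, -0.02 and -0.03.

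**Figure D1:**
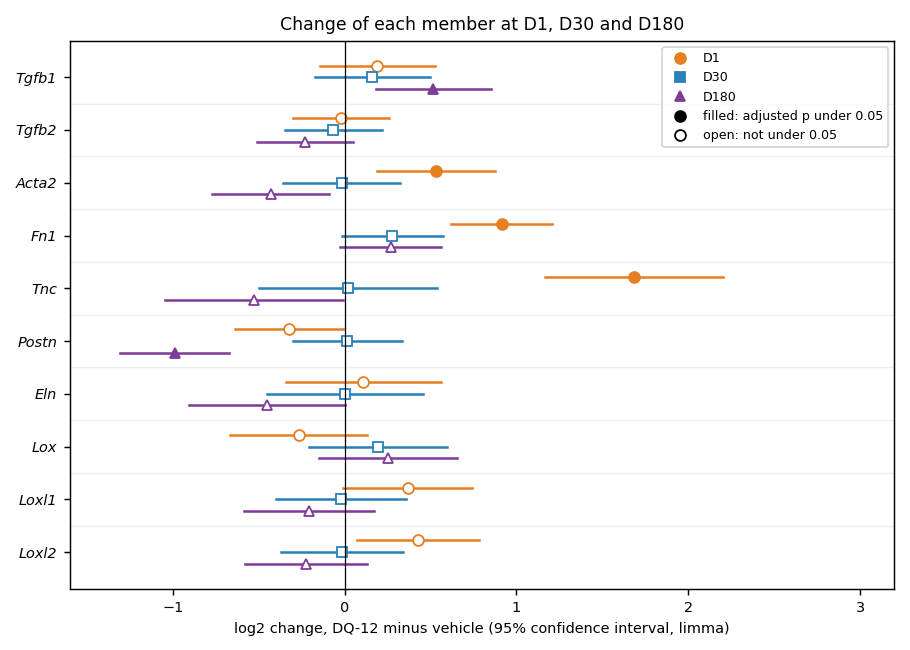
Change of each member in DQ-12 rats relative to vehicle rats (x axis, log2) at D1, D30 and D180, with 95% confidence intervals from limma; filled symbols have an adjusted p under 0.05. Tnc at D1 lies farthest to the right at 1.68, Postn at D180 farthest to the left at -0.99, and at D30 no interval lies wholly on 1 side of 0.

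Among the ligands, Tgfb1, the form most studied in lung fibrosis, was called at D180. The signal in vehicle rats at D180 ran from 7.74 to 8.81 with a median of 8.22, and in DQ-12 rats from 8.26 to 9.26 with a median of 8.70. The groups overlapped, and 3 of 6 DQ-12 rats exceeded the highest vehicle rat. Tgfb1 was higher by 0.52 ± 0.17 (SE; 1.43-fold, adjusted p = 0.0268). The call was lost when each time point was fitted alone (adjusted p = 0.158), with slide as a fixed block (0.0738, with a change of 0.81 that rests on the 1 slide holding an array of each group), and without any 1 of vehicle rats 1 or 4 or DQ-12 rats 2, 4 or 6 at D180 (changes of 0.42 to 0.50). It was kept with slide as a random block (adjusted p = 0.0175) and with scan date as a fixed block (0.0132), and within the date shared by 3 rats of each group the difference was 0.56. At D1 and D30 the changes of Tgfb1 were 0.19 (adjusted p = 0.486) and 0.16 (0.743), and the difference between its changes at D180 and D1, 0.33, was not called (adjusted p = 0.475). Tgfb1 was measured by a single probe in its coding sequence at chr1:80910123-80910182 on the plus strand (build rn4, as given in the array file headers), shown because the call rests on it.
Tgfb1 probe: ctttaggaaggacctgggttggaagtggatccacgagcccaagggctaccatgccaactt

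Tgfb2, which encodes another isoform of the ligand, was not called at any time. The probe with the highest signal gave changes of -0.02, -0.07 and -0.23 at D1, D30 and D180 (adjusted p = 0.95, 0.915 and 0.287). Its 4 probes hardly moved together across the 36 arrays, with pairwise Pearson r from -0.24 to 0.51, so that no single value stands for the gene. At D180, all 4 probes had changes below 0, from -0.23 to -0.45, and none was called when every probe was tested (adjusted p = 0.128 to 0.306). The median over the 4 probes had a change of -0.42 at D180 and was called (adjusted p = 0.0440).

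Acta2, whose protein forms the contractile bundles of smooth muscle and myofibroblasts, was higher at D1. At D1 the vehicle signals spanned 9.42 to 10.13 with a median of 9.94, and the DQ-12 signals 9.87 to 10.72 with a median of 10.49. Of 6 DQ-12 rats, 4 exceeded the highest vehicle rat and the other two lay within the vehicle range. The change was 0.53 ± 0.17 (SE; 1.45-fold, adjusted p = 0.0268). It was lost in fits of each time point alone (adjusted p = 0.0516), with scan date or slide as a block (0.0760 to 0.740), and without any 1 of vehicle rats 1 or 6 or DQ-12 rats 1, 2 or 3 at D1 (0.0552 to 0.0831).

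At D30, the ranges of Acta2 overlapped almost wholly, from 9.06 to 9.74 in vehicle rats and from 8.96 to 10.20 in DQ-12 rats, with a change of -0.02 (adjusted p = 0.990). At D180 the signals spanned 9.45 to 10.09 (vehicle, median 9.78) and 9.23 to 9.54 (DQ-12, median 9.41), and 4 of 6 DQ-12 rats lay below all vehicle rats. The change of -0.43 ± 0.17 (SE) did not pass the threshold (adjusted p = 0.0759), but it did when D180 was fitted alone (0.0432). The change at D180 minus that at D1 was -0.96 ± 0.24 (SE) and was called (adjusted p = 0.0150). The call was lost with scan date as a random block (adjusted p = 0.0581) and kept with slide as a random block (0.0433). That difference was not called with scan date or slide as a fixed block (adjusted p = 0.351 and 0.678).

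Acta2 was measured by a single probe near the end of its transcript. The probe is 60 bases long, has 60% A or T and ends in a run of 6 A. Across the 36 arrays its signal correlated with those of smooth muscle genes, with r = 0.66 for Des (desmin) and 0.54 for Myh11 (smooth muscle myosin heavy chain), but with the group means subtracted r was 0.26 and 0.37 and for Cnn1 -0.02. The genes most like it after subtracting group means were Olr1347, Isx and Olr1l (r = 0.78, 0.73 and 0.72), of which the first and the last carry names of olfactory receptors. These r values share arrays and scan dates and are given as a description.

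In the list of 17 other contractile genes, 2 were higher and 1 lower at D1 (median change 0.22), 2 were lower at D30 (median -0.27), and 10 were lower and none higher at D180 (median -0.43). Of all genes tested, 16.5% were called at D1 and 4.06% at D30. At D180, 7.94% were higher and 9.11% lower. At D1, Actg2 (enteric smooth muscle actin) was higher by 0.59 and Cnn2 by 0.45, while Mylk, the kinase that sets off smooth muscle contraction, was lower (-0.35). At D180, the called decreases with the largest changes were those of Myh11 (-0.82), of Cnn1, which encodes calponin (-0.79), of Mylk (-0.75) and of Myl9, a myosin regulatory light chain (-0.74). Of the 7 other contractile genes at D180, none was called. The summed signal of the 6 smooth muscle markers, as log2, ranged from 13.80 to 14.19 in vehicle and from 14.09 to 14.79 in DQ-12 rats at D1, and from 13.36 to 13.82 and from 12.83 to 13.42 at D180. All 6 were above background on some arrays and 5 on all of them. The markers share genes with the contractile list, among them Myh11, Cnn1 and Actg2, and are not a separate readout. Of these markers 1 was called higher at D1 and 4 lower at D180, and their part in the values of Acta2 was not tested.

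**Figure D2:**
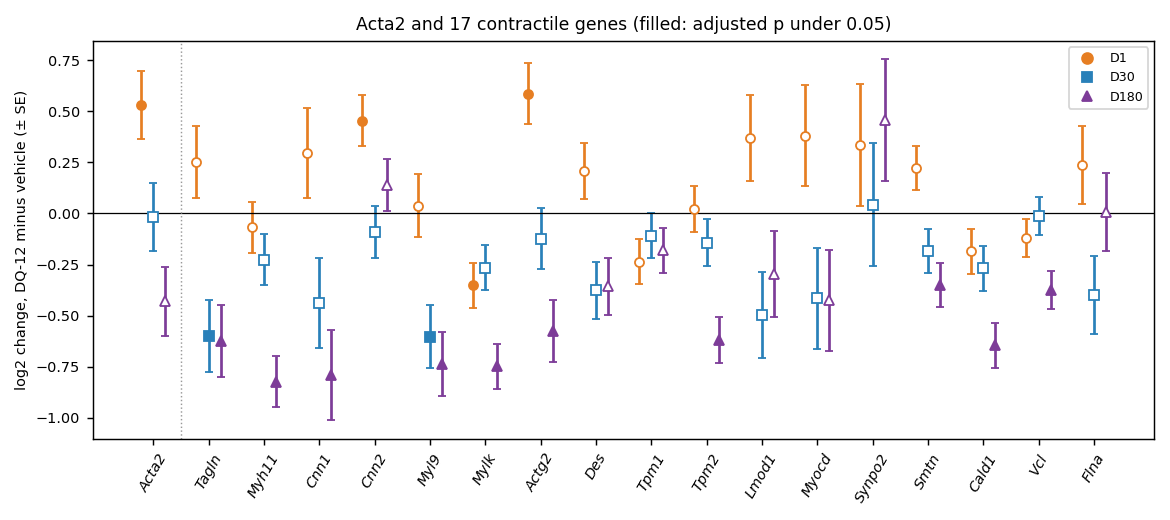
Change (log2, DQ-12 minus vehicle, ± SE) of Acta2 and of 17 further genes of the contractile apparatus at D1, D30 and D180; filled symbols have an adjusted p under 0.05. At D180, 10 of the 17 are called and lie below 0, down to -0.82 for Myh11, while at D1 Acta2, Cnn2 and Actg2 are called above 0.

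Fn1 encodes fibronectin, the provisional matrix on which fibroblasts attach and onto which other matrix proteins are laid. At D1 its signals spanned 11.75 to 12.41 among vehicle rats, with a median of 11.997, and 12.68 to 13.13 among DQ-12 rats, with a median of 12.94. The groups did not overlap, which 5.27% of all genes showed in this direction. Fn1 was higher by 0.91 ± 0.14 (SE; 1.88-fold, adjusted p = 2.926e-05).

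At D30, Fn1 was 11.41 to 12.24 in vehicle and 11.96 to 12.54 in DQ-12 rats, with a change of 0.28 (adjusted p = 0.356). At D180 it was 12.27 to 12.69 in vehicle rats and 12.30 to 13.17 in DQ-12 rats, with 4 of 6 DQ-12 rats above all vehicle rats and a change of 0.27 (adjusted p = 0.231). Vehicle rats themselves had more Fn1 at D180 than at D1, by 0.47 (adjusted p = 0.0333), although without any 1 of 7 of the 12 vehicle rats this was not called. It was also lost with scan date or slide as a random block (adjusted p = 0.0901 and 0.0605), and against the 1 vehicle D1 array scanned with the DQ-12 arrays the difference was 0.07. The difference between the changes at D180 and D1 was -0.65 (adjusted p = 0.0618).

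Tnc encodes tenascin-C, a matrix protein that is scarce in the adult lung and appears at sites of injury and remodeling. It gave the largest change of the 10 members. In vehicle rats at D1 the signal was 6.73 to 8.45 with a median of 7.38, and in DQ-12 rats it was 8.76 to 10.00 with a median of 9.03. The groups did not overlap, as for 5.27% of all genes in this direction. Tnc was higher by 1.68 ± 0.25 (SE; 3.21-fold, adjusted p = 1.519e-05). The exact permutation p was 0.00216, the smallest that 6 against 6 arrays allow. It restates the lack of overlap and was the same for Fn1 at D1 and Postn at D180.

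Both probes of Tnc are shown, since 2 separate stretches of the transcript measured the largest change. They lie in the coding sequence, from base 5564 and from base 6021 of the transcript named in the array files, and those files give no genome position for either. Neither has capitals, because no part of them is singled out.
Tnc probe from base 5564: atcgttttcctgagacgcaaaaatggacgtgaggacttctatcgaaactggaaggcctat
Tnc probe from base 6021: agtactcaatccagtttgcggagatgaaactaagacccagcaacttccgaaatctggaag

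The probe from base 6021 had the higher signal and gave the values above. The probe from base 5564 gave a change of 1.77 ± 0.40 (SE; adjusted p = 0.00243 among all probes), with 4.87 to 6.78 in vehicle and 7.16 to 8.69 in DQ-12 rats at D1, again without overlap. Across the 36 arrays the 2 probes correlated with r = 0.89. Both gave changes near 0 at D30 (0.02 and 0.03) and below 0 at D180 (-0.53 and -0.60, neither called).

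Over the 6 groups, Tnc was highest in DQ-12 rats at D1 (mean 9.16 ± 0.46, SD, n = 6). Next came DQ-12 and vehicle rats at D30 (7.90 ± 0.19 and 7.88 ± 0.39) and vehicle rats at D1 (7.48 ± 0.58), which did not differ from each other beyond their spread. Vehicle and DQ-12 rats at D180 were lowest, at 7.06 ± 0.52 and 6.53 ± 0.45. At D180, 3 of 6 DQ-12 rats lay below all vehicle rats, and the change of -0.53 did not pass the threshold (adjusted p = 0.168). The change of Tnc differed between D30 and D1 by -1.66 ± 0.36 (SE, adjusted p = 0.00913; 2.21% of all genes called) and between D180 and D1 by -2.21 ± 0.36 (SE, adjusted p = 0.000284; 4.65% called). With scan date as a random block, the first was not called (adjusted p = 0.0777) and the second was (0.00474). These 2 differences share the D1 arrays, and with scan date as a fixed block neither was called (adjusted p = 0.765 and 0.255).

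**Figure D3:**
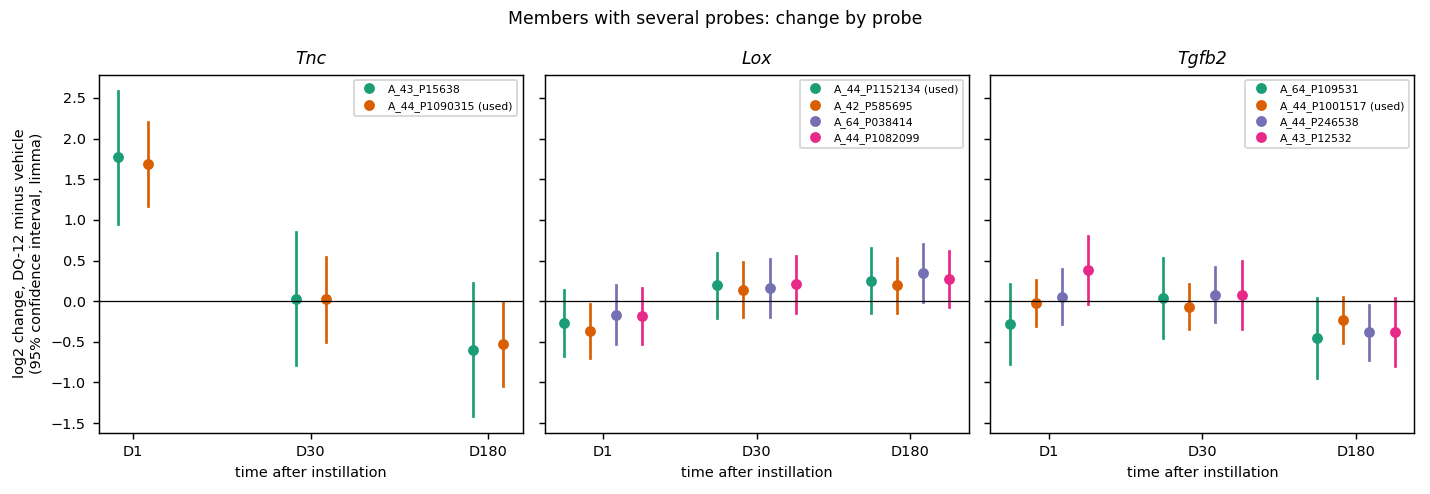
Change (log2, DQ-12 minus vehicle, with 95% confidence intervals from limma) by probe for the members with several probes, Tnc, Lox and Tgfb2, at D1, D30 and D180; probes are in transcript order within each transcript, and the one with the highest mean signal is marked as used. Both Tnc probes sit near 1.7 at D1, the 4 Lox probes have the same sign at each time, and the 4 Tgfb2 probes differ in sign at D1.

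Scan date moved with the D1 result. The 1 vehicle rat scanned on the date of the DQ-12 arrays had a Tnc signal of 8.45 and an Fn1 signal of 12.41, the highest of the 6 vehicle rats in both cases. Against that rat alone, the mean difference was 0.71 for Tnc, 0.52 for Fn1 and 0.36 for Acta2. All 6 DQ-12 rats still exceeded it for Tnc and Fn1, whereas for Acta2 the DQ-12 signals of 9.87 to 10.72 lay on both sides of its 10.02. With scan date as a fixed block, a comparison that rests on that 1 vehicle rat, none of the 3 was called at D1 (adjusted p = 0.450, 0.413 and 0.740). With scan date as a random block, Tnc and Fn1 were called and Acta2 was not (adjusted p = 0.190). For the 5 vehicle arrays scanned apart from the DQ-12 arrays, date and exposure cannot be told apart.

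**Figure D4:**
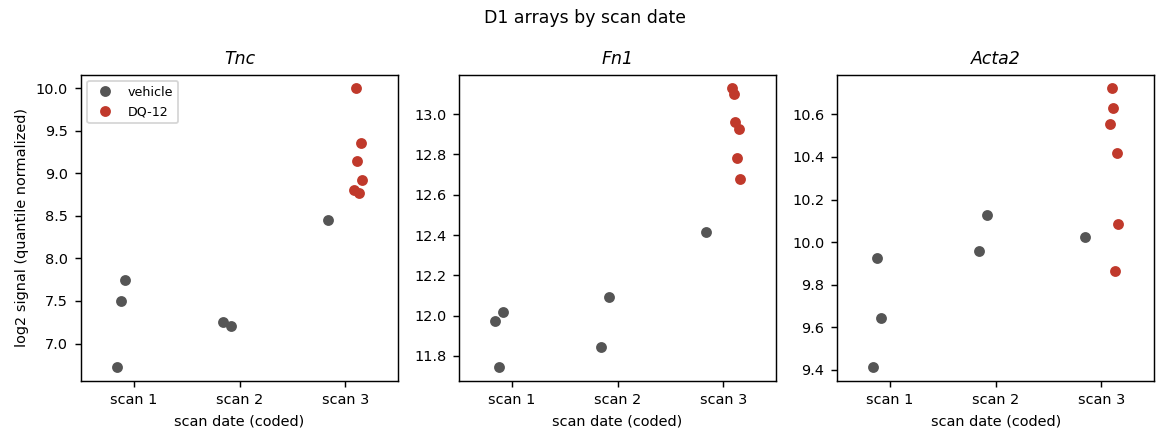
Log2 signal (quantile normalized) of Tnc, Fn1 and Acta2 on the 12 D1 arrays, by scan date in coded order; each point is 1 rat. For Tnc and Fn1 the vehicle rat of scan 3, at 8.45 and 12.41, lies above the other 5 vehicle rats and below all 6 DQ-12 rats of that date.

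The gene that followed Tnc most closely once group means were subtracted was Vcan, which encodes versican, a proteoglycan of provisional matrix (r = 0.84 over 36 arrays). As measured, Cdh24, Ndnf and Lum (lumican) were closest (r = 0.85, 0.85 and 0.84). Vcan was itself on the list of 17 partners of fibronectin, tenascin and periostin, and at D1 it was the only one of them called, higher by 0.96 ± 0.20 (SE, adjusted p = 0.00120). At D180, 3 of that list were higher and 4 lower, against 7.94 and 9.11% of all genes. Thbs2 (thrombospondin-2) was higher by 1.59 and Itga4, an integrin chain for fibronectin and also of leukocytes, by 0.88. Tnxb (tenascin-X) was lower (-0.57).

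Postn, which encodes periostin, a matrix protein of fibroblasts that binds collagen and fibronectin and assists Lox activity, gave the clearest result at D180. Vehicle rats had signals from 9.84 to 10.73 (median 10.10), and DQ-12 rats from 8.60 to 9.43 (median 9.23). All DQ-12 rats lay below all vehicle rats, as was the case for 3.49% of all genes. Postn was lower, with a change of -0.99 ± 0.16 (SE; 1.99-fold, adjusted p = 1.63e-05).

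The result was similar within scan dates. On the date shared by 3 rats of each group, the signals were 9.12 to 9.43 in DQ-12 and 9.88 to 10.28 in vehicle rats, with a difference of -0.75. On the date with 1 rat of each, it was -0.61. With scan date as a fixed block Postn was still called (adjusted p = 0.00457), whereas with slide as a fixed block, where the comparison rests on the 1 slide that held an array of each group at D180, the change was -0.51 (adjusted p = 0.640).

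At D1, the Postn signal was 10.37 to 10.85 in vehicle and 9.86 to 10.41 in DQ-12 rats, with 4 of 6 DQ-12 rats below all vehicle rats and a change of -0.32 (adjusted p = 0.159). At D30 the ranges were 10.10 to 10.94 and 10.14 to 10.70, with a change of 0.02 (adjusted p = 0.991). The group means thus lay between 10.15 and 10.61 in all groups except DQ-12 rats at D180, which had 9.16 ± 0.30 (SD, n = 6). The change at D180 minus that at D30 was -1.01 ± 0.22 (SE, adjusted p = 0.0354; 0.249% of all genes called). It was lost without any 1 of 9 rats, with adjusted p up to 0.0774, and in each fit with scan date or slide as a block.

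Postn was measured by a single coding probe, shown because the D180 result rests on it. The array files place it on the plus strand of chromosome 2 (build rn4) over a span longer than the probe, chr2:143560792-143561828.
Postn probe: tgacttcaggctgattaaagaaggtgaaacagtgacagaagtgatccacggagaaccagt

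Fibroblast markers did not show such calls. None of 8 (Pdgfra, Col1a1, Col1a2, Col3a1, Dcn, Lum, Tcf21 and Mfap4) was called at D180, and their summed log2 signal was 15.17 to 15.62 in vehicle and 15.02 to 15.36 in DQ-12 rats. At D1, Lum was higher by 1.05 and Tcf21 lower (-0.85) while the sums were 15.98 to 16.48 and 16.24 to 16.54. Of the 8, 7 were well above background on all arrays. As measured, the genes most like Postn were Lamb1, a laminin chain, Abi3bp and Ntrk3 (r = 0.87, 0.86 and 0.85). Once group means were subtracted, the first was Nop56 with r = 0.72.

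Markers of other cells also moved at D180, where 7.94% of all genes were called higher and 9.11% lower. Of 7 macrophage markers 5 were higher, of 6 neutrophil markers 4 were higher, and of 5 endothelial and 5 alveolar type 1 markers 4 and 5 were lower. The summed macrophage signal was 12.61 to 13.32 in vehicle and 14.10 to 14.75 in DQ-12 rats, and the neutrophil sum 14.17 to 14.60 and 15.76 to 16.22. The endothelial sum was 16.41 to 16.67 in vehicle and 15.58 to 16.42 in DQ-12 rats, and the alveolar type 1 sum 18.08 to 18.46 and 17.68 to 17.88. Of the macrophage and neutrophil markers, 6 and 5 were well above background on all arrays, as were all endothelial and alveolar type 1 markers. Higher signals were also called for 2 of 6 alveolar type 2 markers. Lower signals were also called for 3 of 7 markers of cardiac and skeletal muscle, 3 of 5 of mesothelium and 1 of 4 of platelets. The part of these cells in the D180 values of Postn and Tgfb1 was not tested. At D1, 3 macrophage markers and 1 neutrophil marker were higher, 2 of 5 alveolar type 1 and 2 of 5 mesothelial markers were lower, and of 6 alveolar type 2 markers 1 was higher and 1 lower. The D1 sums in vehicle and DQ-12 rats were 12.54 to 13.27 and 13.29 to 13.61 for macrophages, 14.42 to 15.01 and 14.49 to 15.75 for neutrophils, and 17.95 to 18.14 and 17.61 to 17.99 for alveolar type 1 cells. Their part in the values of Tnc, Fn1 and Acta2 was not tested either. Cell markers moved at D30 too, when 4.06% of all genes were called. At that time 5 of 7 macrophage, 2 of 6 neutrophil and 2 of 6 alveolar type 2 markers were higher. Lower signals were called for 3 of 5 mesothelial, 1 of 5 endothelial and 1 of 6 smooth muscle markers.

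Promoter sequences were at hand for 6 of the 10 members (RefSeq, build GRCr8), and the 3 that held a TATA motif are printed: those of Tnc and Acta2, called at D1, and of Postn, called at D180. Each shows the 250 bases before the transcription start, 5′ to 3′ on the strand of the gene. Capitals mark TATAAA or TATATAA on that strand. Both strands were searched, and the 2 motifs can overlap, but not in these sequences.
Tnc, chr5:82476132-82476381, minus strand: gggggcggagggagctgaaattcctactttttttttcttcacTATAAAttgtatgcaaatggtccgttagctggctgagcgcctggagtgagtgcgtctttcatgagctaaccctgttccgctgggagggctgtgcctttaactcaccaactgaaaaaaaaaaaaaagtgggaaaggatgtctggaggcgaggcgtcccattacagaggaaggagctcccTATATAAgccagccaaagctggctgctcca
Acta2, chr1:241172504-241172753, minus strand: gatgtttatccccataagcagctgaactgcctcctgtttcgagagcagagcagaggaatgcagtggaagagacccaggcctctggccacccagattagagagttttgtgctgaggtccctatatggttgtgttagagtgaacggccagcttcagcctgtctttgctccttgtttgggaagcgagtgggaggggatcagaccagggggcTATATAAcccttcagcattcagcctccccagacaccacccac
Postn, chr2:140677811-140678060, plus strand: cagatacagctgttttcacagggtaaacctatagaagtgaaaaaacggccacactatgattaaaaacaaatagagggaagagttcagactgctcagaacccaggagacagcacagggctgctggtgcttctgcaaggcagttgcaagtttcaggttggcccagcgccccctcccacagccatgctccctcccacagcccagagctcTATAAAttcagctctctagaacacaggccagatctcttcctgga

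TATATAA began 30 bases before the start in Tnc and 42 bases before it in Acta2, and 3.42% of the 33469 promoter windows of the table held it. TATAAA, which 12.9% of the windows held, began 44 bases before the start in Postn and 208 bases before it in Tnc. Neither motif was found in the windows of Tgfb1, Tgfb2 and Loxl1. Also searched by exact match were TGANTCA (N, any base) and the CArG box (CC, 6 bases of A or T, GG). Exact matches were held by 6.34 and 1.5% of the windows, and by none of the 6 members. Near matches were not searched for. The Acta2 window printed above holds ccctatatgg and ccttgtttgg, each of which departs from the CArG pattern at a single middle base. These matches describe the sequences and are not evidence of binding.

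Among the crosslinking enzymes and their substrate elastin, no change passed the test at any time. Eln, which encodes the core of elastic fibers, had 12.23 to 13.05 in vehicle and 11.93 to 13.36 in DQ-12 rats at D1 and overlapped as widely at D30 (changes of 0.11 and 0.00). At D180 it spanned 11.60 to 12.78 among vehicle rats, with a median of 12.38, and 11.40 to 12.23 among DQ-12 rats, with a median of 11.84. Of 6 DQ-12 rats, 2 lay below all vehicle rats, and the change was -0.45 ± 0.22 (SE, adjusted p = 0.177), with a 95% interval from -0.91 to -0.0002.

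Lox, the founding lysyl oxidase, had changes of -0.27, 0.19 and 0.25 at D1, D30 and D180 (adjusted p = 0.394, 0.739 and 0.446). Its signals were 11.75 to 12.17 in vehicle and 11.48 to 11.94 in DQ-12 rats at D1, where 3 of 6 DQ-12 rats lay below all vehicle rats. At D180 vehicle rats ranged widely, from 10.55 to 12.49, and all DQ-12 rats lay within that range, from 11.47 to 11.86. All 4 Lox probes had the same signs at each time, and their pairwise r was 0.65 to 0.91, so the lack of a call was common to the probes.

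Loxl1, the lysyl oxidase that acts chiefly on elastin, had 10.25 to 10.63 in vehicle and 10.34 to 10.99 in DQ-12 rats at D1, with 5 of 6 DQ-12 rats above all vehicle rats. Its change of 0.37 was not called (adjusted p = 0.186, 95% interval -0.01 to 0.74). Loxl2, which acts on collagen IV and also in the nucleus, had 8.19 to 8.89 in vehicle and 8.76 to 9.16 in DQ-12 rats at D1, with a change of 0.43 (adjusted p = 0.0924, interval 0.07 to 0.78). With array weights, which count deviating arrays less, Loxl2 was called at D1 (0.39, adjusted p = 0.0364). At D30 and D180 the changes of Loxl1 were -0.02 and -0.21 and those of Loxl2 -0.01 and -0.22, all with adjusted p of 0.447 or more.

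**Figure D5:**
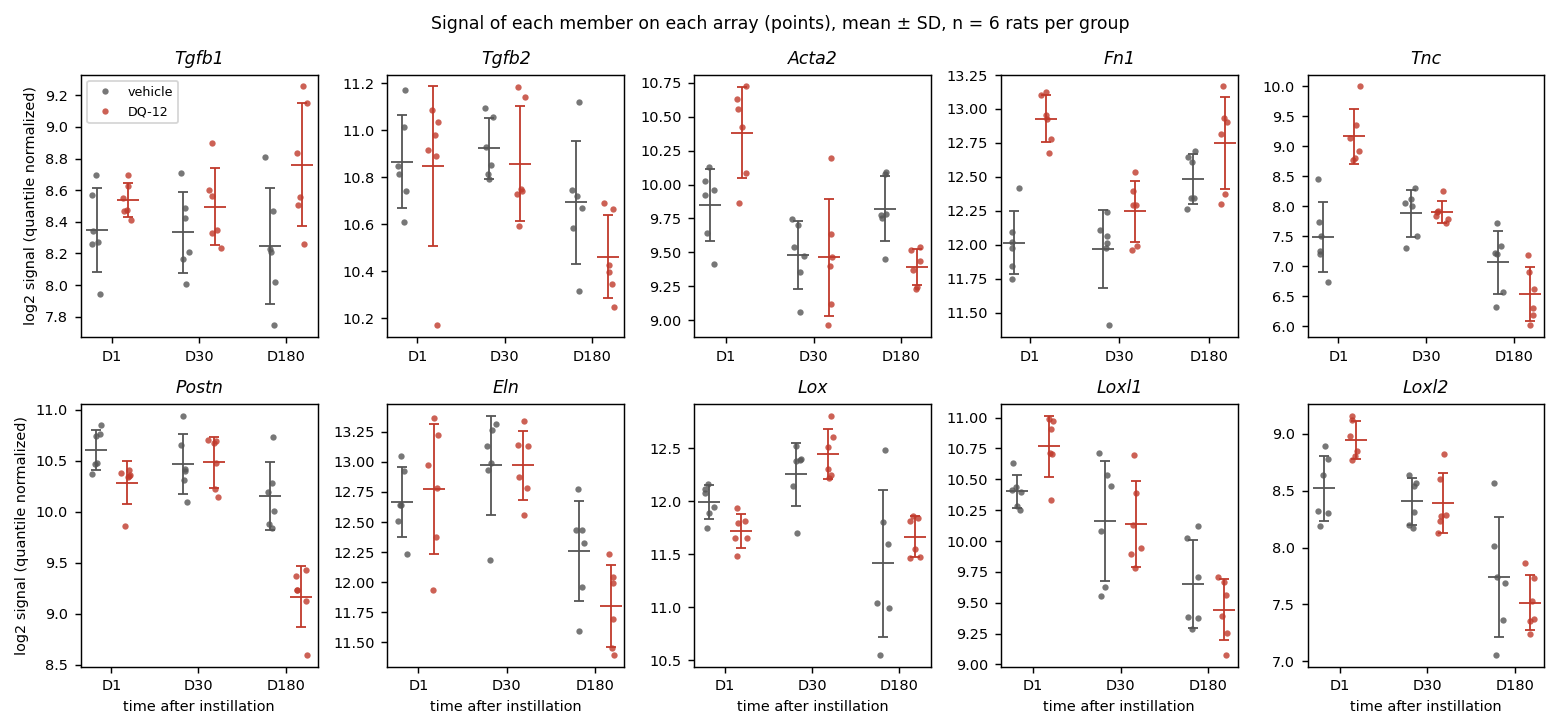
Log2 signal (quantile normalized; y axes differ) of each of the 10 members on each of the 36 arrays, by time after instillation; points are rats, and bars give the mean ± SD of 6 rats. The DQ-12 groups stand apart for Tnc and Fn1 at D1 and for Postn at D180, and Loxl1 and Loxl2 are lower in both groups at D180 than at D1.

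Both enzymes moved with time in the vehicle rats. Loxl1 was 10.25 to 10.63 at D1 and 9.28 to 10.12 at D180, without overlap (2.23% of all genes in this direction), a difference of -0.75 ± 0.19 (SE, adjusted p = 0.00789; 10.7% of all genes called). Loxl2 was 8.19 to 8.89 at D1 and 7.06 to 8.57 at D180, with 5 of 6 rats below all D1 rats and a difference of -0.78 ± 0.17 (SE, adjusted p = 0.00387). With scan date as a random block, the call of Loxl1 was lost (adjusted p = 0.0557) and that of Loxl2 was kept (0.0258). The difference of Postn, -0.45, did not pass the threshold (adjusted p = 0.0557). For Lox the probes disagreed on the call. The probe with the highest signal gave -0.58 (adjusted p = 0.0541), whereas the coding probe from base 1464 gave -0.91, with all 6 rats below all D1 rats (0.00132 among all probes), and of the other two 1 was called (-0.56, 0.0347) and 1 was not (-0.31, 0.241). The median over the Lox probes was called (-0.48, 0.0359). No scan date held vehicle arrays of both times, so date and time after instillation cannot be told apart here. From D1 to D30, none of the 10 members was called in vehicle rats (6.59% of all genes).

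Loxl1 and Loxl2 correlated with each other across the 36 arrays (r = 0.84 as measured, 0.44 with group means subtracted). The genes most like Loxl1 as measured were Pcolce, a protein that speeds the trimming of procollagen, Dbn1 and Col6a1, a collagen VI chain (r = 0.91, 0.89 and 0.87). For Loxl2 they were Sema3c, Maged2 and Hdac1l (r = 0.89, 0.88 and 0.84). All groups and times enter these values.

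A further list held 17 tested enzymes that crosslink or otherwise modify proteins. Of these, 1 was higher and 1 lower at D1, 2 were lower at D30 and 2 lower at D180 (median -0.10). Of all genes, 16.5, 4.06 and 17.1% were called at these times. At D180, Loxl4 was lower with a change of -0.77, and P3h2, a collagen prolyl hydroxylase, with a change of -0.71. Tgm2, the tissue transglutaminase, was lower at D1 (-0.40), and Tgm1 at D30 (-0.59).

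The 15 genes of elastic fiber assembly had calls in both directions. At D1, Emilin1, a glycoprotein of elastic fibers, was higher by 0.75 and Efemp2 (fibulin-4), which brings Lox to tropoelastin, by 0.70. At D30, 3 were higher and 1 lower. At D180, Emilin2 was higher by 1.38 and Efemp1 (fibulin-3) lower with a change of -0.86, with 2 higher and 4 lower in all and a median of -0.32. Of all genes, 7.94% were higher and 9.11% lower at D180.

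In the TGF-β pathway itself, each of 3 lists had more genes called lower than higher at D180. Of all genes tested, 7.94% were called higher and 9.11% lower. Among 13 genes of ligands, latency and activation, 1 was higher and 4 were lower: Itgb8, an integrin chain that frees latent TGF-β, was higher by 1.66, and Ltbp1, a latent TGF-β binding protein, Tgfb3 and Itgb5 were lower (-0.97, -0.82 and -0.74). Among 15 receptors and Smads, Tgfbr1 was higher by 0.87 and 5 were lower, among them Acvrl1 (-0.73), Smad6 (-0.69) and Bambi (-0.68), the last 2 inhibitors of the pathway. Among 16 target genes, 1 was higher and 3 were lower, with Snai2 at -0.86. The medians of the 3 lists at D180 were -0.32, -0.30 and -0.29.

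At D1, where 16.5% of all genes were called, the same lists stood as follows. Of the 13 genes of ligands, latency and activation, 1 was higher and 1 lower, and of the 15 receptors and Smads 1 was lower. Of the 16 target genes, 1 was higher and 2 were lower, namely Snai1 (-0.97) and Id1 (-0.62). At D30, 1 gene of the first list was higher and 1 lower, Tgfbr1 was higher in the second list, and none of the target genes was called.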

How the data were processed

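The authors used Feature Extraction 12.0.1.1 for the scans, and the deposited files give intensity per spot. Starting from log2 of the background-corrected intensity, 232 to 596 outlier spots per array were dropped, and the remaining spots of each probe were averaged. A second deposited table of log2 values matched these after 75th percentile scaling and centering per probe (median absolute difference 0.00177 over 45598 probes) and served as an alternative.

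Of 45598 probes, the 41767 above the 95th percentile of 308 negative control spots on at least 6 arrays were kept and quantile normalized, as the study's methods describe without parameters. Of these, probes with a gene name were tested, and the one with the highest mean signal stood for a gene. A model of 6 group means was fitted to 36 arrays with limma 3.58.1 (R 4.3.3), 2-sided, with Benjamini–Hochberg adjustment in each comparison. The methods name a batch correction without its variable, so scan date and slide entered only as alternatives.

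The members and gene lists were chosen with earlier results of these data known. Up to 4 called genes with the largest change were named per pathway list, except 1 gene that is not reported here, and for each member its 3 most correlated genes were computed. Arrays of other materials were not analysed here. The fitting script was also run on simulated data, which in the main check held no effect of scan date. Alternatives changed the background correction, normalization, filter, probe summary, moderation, blocks and threshold, and left out each rat in turn.

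The deviations of same-numbered vehicle and DQ-12 rats from their group means had r from -0.13 to 0.22. Of 6 pairs at each time, 1 at D1, 2 at D30 and 3 at D180 had r over 0.1. Rats of unlike number were not compared, and the numbers were not used as pairs.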

Additional observations from a re-analysis of the deposited data

Results flagged for a closer look

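In 6 of 60 sets of 6 rats (10 members in 6 groups), 1 rat lay so far from its group that its gap to the nearest rat, as a share of the whole range of the group, exceeded the 95% critical value of Dixon's test. Chance flags about 1 in 20 groups. For Postn, DQ-12 rat 2 was lowest at D1 (9.86 against 10.34 for the next, share 0.878), and DQ-12 rat 4 at D180 (8.60 against 9.12, share 0.632). For Tgfb2, DQ-12 rat 2 was lowest at D1 (10.17 against 10.89, share 0.788). Vehicle rat 1 at D30 was lowest for both Fn1 (11.41 against 11.98, share 0.686) and Eln (12.18 against 12.94, share 0.665). For Tnc, DQ-12 rat 4 was highest at D30 (8.25 against 7.91, share 0.627). The causes were not tested.

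In 4 cases, the effect of DQ-12 on a member differed between times by the test of the difference itself (limma). For Tnc the change at D30 minus that at D1 was -1.66 and the change at D180 minus that at D1 was -2.21. For Acta2, D180 minus D1 was -0.96, and for Postn, D180 minus D30 was -1.01. The differences that involve D1 carry the scan dates of the D1 vehicle arrays.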

How the results depend on the processing

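The counts of members called were 3 at D1, 0 at D30 and 2 at D180, and for differences between changes 1 (D30 minus D1), 1 (D180 minus D30) and 2 (D180 minus D1), with 3 in vehicle rats (D180 minus D1). Leaving out 1 rat gave 2 to 3, 0 to 0, 1 to 3, 1 to 2, 0 to 1, 2 to 3 and 2 to 5. For the settings that follow, only the larger shifts are listed, so a count not listed may still have moved. With scan date as a fixed block, 0 were called at D1 and 0 for each of the 3 differences. With slide as a fixed block, 0 were called at D1, 0 at D180 and 0 for each of the 3 differences. As random blocks (correlation 0.253 and 0.388), scan date gave 0 for D30 minus D1, 0 for D180 minus D30, 1 for D180 minus D1 and 1 in vehicle rats, and slide gave 0 for D180 minus D30. Both random blocks also lost Acta2 at D1, and slide lost Fn1 in vehicle rats. Array weights gave 2 for D30 minus D1, 4 for D180 minus D1 and 5 in vehicle rats. The filter on probes well above background gave 4 for D180 minus D1 and 5 in vehicle rats, and normexp background correction 5 in vehicle rats. With a 2-fold threshold, 1 was called at D1, 0 at D180, 1 for D180 minus D1 and 0 in vehicle rats. With only the vehicle D1 array of the shared scan date, chosen after seeing the data, 0 were called at D1, 0 for D30 minus D1, 0 for D180 minus D1 and 0 in vehicle rats. The causes were not tested, except that the fixed blocks and this last setting leave few arrays to compare.

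With the replicate number as a block, the counts were 3 at D1, 0 at D30 and 2 at D180, and the labels do not say that a number marks a shared litter, batch or day. Of 890 values of single members under other settings, 36 lost and 15 gained a call, and of 1200 with 1 rat left out, 26 and 11. Most of these values were not called in the main fit and so could not lose a call. The losses were therefore a larger share of the calls than of all values. None changed direction while called.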
